A study of Arabidopsis thaliana with 2 samples.

Results

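Jasmonate synthesis enzymes turn a plastid fatty acid into the hormone jasmonate, and their transcripts were described in cold-treated Arabidopsis thaliana leaves of the wild type Col-0 and of the mutant npr1-1. The 10 genes were taken by their gene IDs: the 13-lipoxygenases LOX2, LOX3, LOX4 and LOX6, the allene oxide synthase AOS, the allene oxide cyclases AOC1 to AOC4, and the reductase OPR3. All 10 were among the 18345 genes listed in both libraries. Each genotype had 1 library of leaf RNA from plants 2 weeks old, held at 4 °C for 24 h under long days, with the light lowered from 90 to 40 µmol per square metre per second. The mutant npr1-1 is defective in NPR1, a co-activator of salicylic acid responses, and the wild type carries no named allele. The labels do not say how many plants went into a library. No library of plants kept warm was analysed here, so nothing below measures the response to cold.

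Jasmonate is made from linolenic acid released from plastid membranes. A 13-lipoxygenase adds oxygen to the fatty acid, AOS turns the hydroperoxide into an unstable allene oxide, and an allene oxide cyclase closes the ring to give 12-oxo-phytodienoic acid (OPDA). OPDA leaves the plastid, OPR3 reduces it in the peroxisome, and beta-oxidation shortens its side chain to jasmonic acid. In leaves the hormone is best known for responses to wounding and to chewing insects. Salicylic acid signalling through NPR1 is known to restrain jasmonate responses, and the part of this antagonism in the 2 libraries was not tested.

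Transcripts of these enzymes were lower in the npr1-1 library than in the Col-0 library. The 10 genes summed to 922 CPM (reads per 1000000 over all listed genes) in Col-0 against 540 in npr1-1, and the ratio of these sums was 0.586 (95% counting interval 0.578 to 0.595). LOX2 alone gave 489 of the 922 CPM and 234 of the 540, so the summed ratio weighs that gene most. On the log2(CPM + 1) scale all 10 differences, npr1-1 minus Col-0, were below 0, against 59.0% of the 13976 genes that reached 5 CPM in Col-0, in npr1-1 or in both. The median of the 10 was -0.48, against -0.05 for those 13976 genes. Of the 9 members that reached 5 CPM in both libraries all 9 were below 0, against 58.9% of all such genes. The size of the difference varied by gene, from 2.09-fold lower for LOX2 to a ratio of 0.970 for LOX6. With 1 library per genotype the spread between plants was not measured, no p-value was computed, and every interval covers counting error only.

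All 10 genes passed the minimum of 5 CPM. AOC3 passed through the Col-0 library alone, so its difference was bound to be negative. At least 2-fold lower was 1 of the 10, LOX2, where 0.529% of all genes past the minimum were, and none was at least 2-fold higher, where 0.200% were (0.730% for both directions). At least 1.5-fold lower were 3 of the 10, LOX2, AOC1 and AOC2, against 2.06% of all genes (2.97% for both directions). These counts use the log2(CPM + 1) scale, on which LOX4 and AOC3 fell short, although their CPM ratios were 0.658 and 0.612. The counting interval of the ratio lay wholly below 1 for 9 of the 10, AOC3 among them, against 36.8% of all genes, and LOX6 was the exception. None of the 10 was at least 1.5-fold higher in npr1-1, as 0.909% of all genes were, and no interval lay wholly above 1, as 23.5% did.

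**Figure D1:**
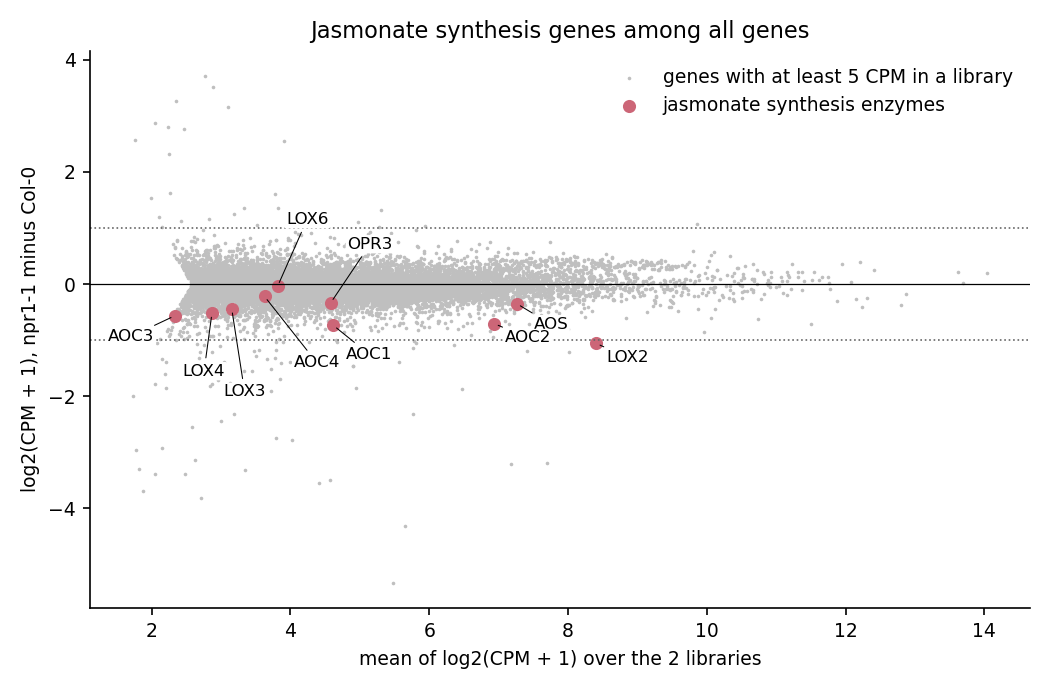
The vertical axis gives the log2(CPM + 1) difference, npr1-1 minus Col-0, and the horizontal axis the mean of log2(CPM + 1) over the 2 libraries, for 13976 genes (grey) and the 10 jasmonate synthesis genes (red). Dotted lines mark 2-fold, and LOX2 lies just below the lower one at -1.06, while LOX6 lies at -0.04.

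Because AOC1, AOC2 and AOC3 are copies of one another, a stretch of their coding sequences is shown to make plain how much they share. It is the run of 60 aligned bases with the most positions common to the 4 cyclases, taken from the RefSeq annotation of TAIR10.1 and written 5′ to 3′, and capitals mark the 8 positions that are not the same in all 4.
AOC1: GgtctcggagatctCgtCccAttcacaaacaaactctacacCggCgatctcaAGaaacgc
AOC2: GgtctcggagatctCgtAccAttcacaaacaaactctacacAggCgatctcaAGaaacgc
AOC3: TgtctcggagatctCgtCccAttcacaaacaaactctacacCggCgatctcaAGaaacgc
AOC4: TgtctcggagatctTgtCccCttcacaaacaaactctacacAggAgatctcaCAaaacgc
Over the whole coding sequence AOC1 and AOC2 were 90.3% identical, AOC1 and AOC3 82.7%, and AOC2 and AOC3 82.4%. AOC4 was 75.2% identical to AOC1, 74.4% to AOC2 and 80.2% to AOC3. The longest run of identical bases was 47 between AOC1 and AOC2, 73 between AOC1 and AOC3, and 50 between AOC2 and AOC3, and it was at most 26 between AOC4 and any of them. A read that falls inside such a run cannot be given to one copy, and the sources used here give neither the read length nor the treatment of such reads. In a search of all annotated transcripts no gene other than the 10 themselves gave a BLAST alignment of at least 80% identity over at least 50% of a member's transcript, and no annotated gene overlapped them. With AOC3, LOX3 or LOX4 as the query this rule found no gene, not even their relatives among the 10. The search therefore cannot show that no other gene shares reads with the members.

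Upstream sequence is shown for LOX2, which differed most, and for the tandem cyclases AOC1, AOC2 and AOC3, which had nearly the same ratio. Each line holds the 300 bases before the RefSeq gene start, read on the gene's own (plus) strand of TAIR10.1. Capitals mark matches, on either strand, to 1 of 6 motifs. These were the G-box CACGTG of MYC-type factors, GCCGCC of ERF factors, TGACG of TGA factors (the partners of NPR1), TTGACC of WRKY factors, GGNCCC of TCP factors, and the element of heat shock factors, which reads GAA, 2 bases of any kind, TTC, 2 of any kind, and GAA.
LOX2 (chr3:16524945-16525244): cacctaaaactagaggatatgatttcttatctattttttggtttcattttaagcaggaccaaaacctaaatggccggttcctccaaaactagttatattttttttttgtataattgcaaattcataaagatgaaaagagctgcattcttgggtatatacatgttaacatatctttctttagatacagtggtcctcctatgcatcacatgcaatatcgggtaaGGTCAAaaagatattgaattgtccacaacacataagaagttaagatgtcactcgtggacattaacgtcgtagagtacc
AOC1 (chr3:9403479-9403778): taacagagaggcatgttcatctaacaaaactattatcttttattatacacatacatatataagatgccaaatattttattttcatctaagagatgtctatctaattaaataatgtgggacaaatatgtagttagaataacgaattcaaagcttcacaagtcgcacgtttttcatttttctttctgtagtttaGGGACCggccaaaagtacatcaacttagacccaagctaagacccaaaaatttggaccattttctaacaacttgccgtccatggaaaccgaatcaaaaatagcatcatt
AOC2 (chr3:9406369-9406668): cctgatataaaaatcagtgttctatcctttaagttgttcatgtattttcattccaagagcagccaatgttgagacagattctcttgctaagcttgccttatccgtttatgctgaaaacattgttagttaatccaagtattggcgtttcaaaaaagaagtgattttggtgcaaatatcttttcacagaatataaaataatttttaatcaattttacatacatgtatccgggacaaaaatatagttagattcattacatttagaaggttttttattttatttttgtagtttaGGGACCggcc
AOC3 (chr3:9408860-9409159): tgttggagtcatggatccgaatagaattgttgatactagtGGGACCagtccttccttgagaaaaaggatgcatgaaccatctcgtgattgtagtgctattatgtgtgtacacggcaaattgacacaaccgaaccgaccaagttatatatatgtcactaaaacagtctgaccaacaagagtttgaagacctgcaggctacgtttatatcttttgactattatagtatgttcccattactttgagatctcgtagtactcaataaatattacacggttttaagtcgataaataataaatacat
GGNCCC was present upstream of AOC1, AOC2 and AOC3 and of none of the other 7 members, while 8.20% of 27443 protein-coding promoters of the same length held it. Of the 13835 of these promoters whose genes passed the minimum, 9.46% held it. In AOC1 it lay 108 to 103 bases before the start, in AOC2 10 to 5 and in AOC3 260 to 255. AOC1 and AOC2 also shared a run of 19 identical bases around it, the longest shared run among the 45 pairs of members. As AOC1, AOC2 and AOC3 are copies of one another, their matches are not separate cases. The motifs were also chosen with earlier results of these data known, so setting them beside the shares is no test. The starts of the deposited gene models lay inside those of RefSeq, by 104 bases for AOC1, 204 for AOC2 and 130 for AOC3, so the distances depend on the annotation.

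Each of the other motifs was found upstream of at most 2 members. CACGTG was found upstream of AOS alone, directly before its start, against 7.09% of all promoters. TGACG was found upstream of LOX4 and LOX6, against 21.3%, and TTGACC upstream of LOX2 and LOX6, against 14.01%. GCCGCC was found upstream of 0 of the 10 members, against 2.26% of all promoters. The heat shock element was found upstream of 0 of them, against 0.485%, and its shorter form GAANNTTC, which is contained in it, upstream of LOX4 alone, against 11.5%. A match describes letters in this window and says nothing of binding.

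LOX2 (AT3G45140, chromosome 3, 16525410 to 16529352, plus strand, TAIR10) encodes the 13-lipoxygenase of leaf plastids that supplies most wound-induced jasmonate. It was measured at 489 CPM in Col-0 against 234 in npr1-1, or 24884 and 11934 reads. The level was 2.09-fold lower in npr1-1, with a counting interval from 2.04 to 2.14. Its difference was the 65th lowest of the 13976 genes. By level it was the gene with rank 262 from the top in Col-0 and rank 674 in npr1-1. Its log2 difference of -1.06 became -1.02 with median-ratio or trimmed-mean scaling and -0.97, short of 2-fold, once the median of genes of like transcript length was subtracted. Longer genes tended to be lower in npr1-1. The median difference was 0.114 in the shortest of 20 length bins and -0.106 in the longest, which limits comparing genes of unlike length.

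The other 13-lipoxygenases were far less abundant. LOX3 (AT1G17420) and LOX4 (AT1G72520), which are close relatives known for roles in fertility and wounding, stood at 9.38 and 7.75 CPM in Col-0. In npr1-1 they stood at 6.63 and 5.10 CPM. Their ratios were 0.707, with a counting interval from 0.613 to 0.814, and 0.658, from 0.561 to 0.772. These intervals overlapped, and the LOX3 ratio divided by the LOX4 ratio was 1.07 (interval 0.866 to 1.33). LOX3 and LOX4 shared 80.6% of aligned coding bases but no identical run above 24 bases.

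LOX6 (AT1G67560), a 13-lipoxygenase known from vascular tissue and from the fast jasmonate response to wounding, was alike in both libraries. It was measured at 13.3 CPM in Col-0 against 12.9 in npr1-1, or 675 and 656 reads. The ratio was 0.970, and its counting interval, from 0.870 to 1.08, held 1. The LOX2 ratio divided by the LOX6 ratio was 0.493 (interval 0.442 to 0.552), so the ratios of these relatives differed by more than counting error. That quotient does not depend on how the libraries were scaled.

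The make-up of the 13-lipoxygenase transcripts shifted accordingly. LOX2 gave 94.2% of the reads of the 4 genes in Col-0 (exact binomial interval 93.9 to 94.4%) and 90.5% in npr1-1 (90.0 to 91.0%). LOX6 gave 2.55% (2.37 to 2.75%) and 4.97% (4.61 to 5.36%). LOX3 gave 1.80 and 2.56%, and LOX4 1.49 and 1.97%. The 4 genes together stood at 519.6 and 259 CPM, which made the ratio 0.498 (interval 0.488 to 0.508).

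**Figure D2:**
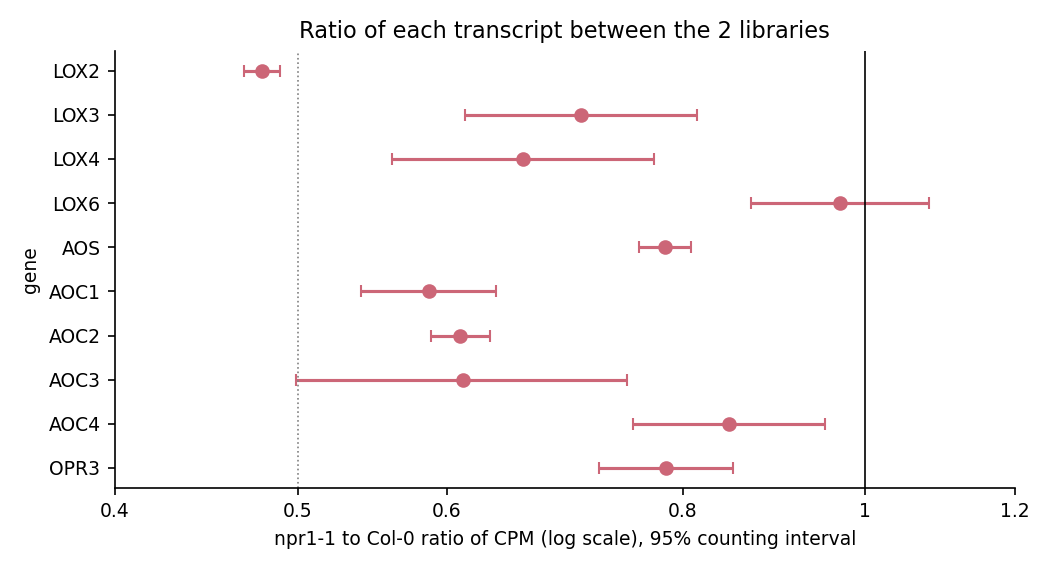
Points give the npr1-1 to Col-0 ratio of CPM on a log axis for each of the 10 genes, with 95% counting intervals, and vertical lines mark ratios of 1 (solid) and 0.5 (dotted). LOX2 lies at 0.479, AOC1, AOC2 and AOC3 lie between 0.587 and 0.612, and only the interval of LOX6 includes 1.

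AOS (AT5G42650, chromosome 5, 17097595 to 17099395, minus strand) is a cytochrome P450 and the single gene for its step in Arabidopsis. It was measured at 172 CPM in Col-0 against 135 in npr1-1, or 8766 and 6878 reads. This gave a ratio of 0.783 (counting interval 0.758 to 0.808). The difference of AOS was smaller than those of LOX2 and AOC2, the main genes of the steps before and after it. The LOX2 ratio divided by the AOS ratio was 0.611 (interval 0.588 to 0.635), and the AOC2 ratio divided by the AOS ratio was 0.779, from 0.742 to 0.817.

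AOC1 (AT3G25760), AOC2 (AT3G25770) and AOC3 (AT3G25780) lie in a row on the plus strand of chromosome 3, within 6685 bases from 9403883 to 9410567 (TAIR10). AOC2 was the main cyclase, at 156 CPM in Col-0 against 94.98 in npr1-1, or 7923 and 4842 reads. AOC1 stood at 30.7 and 18.01 CPM. AOC3 stood at 5.13 and 3.14 CPM, or 261 and 160 reads.

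The 3 tandem genes were lower in npr1-1 by nearly the same factor, although their levels differed widely. The ratio was 0.587 for AOC1 (0.540 to 0.637), 0.610 for AOC2 (0.588 to 0.632) and 0.612 for AOC3 (0.499 to 0.748). The AOC1 ratio divided by that of AOC2 was 0.962 (interval 0.879 to 1.05), and the AOC3 ratio divided by that of AOC2 was 1.00, from 0.816 to 1.23. Reads shared between the copies would draw their ratios together, and their part in this likeness was not tested. Summed, the 3 genes had a ratio of 0.606 (interval 0.587 to 0.626), which does not depend on how reads were split among them.

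AOC4 (AT1G13280), the cyclase gene on chromosome 1, differed less. It was measured at 12.3 CPM in Col-0 against 10.4 in npr1-1, which made the ratio 0.847 (interval 0.753 to 0.952). Dividing by the AOC4 ratio gave 0.693 for AOC1 (0.6002 to 0.801), 0.720 for AOC2 (0.637 to 0.815) and 0.723 for AOC3 (0.571 to 0.913). Each of these intervals lay below 1. AOC4 accordingly made up 6.05% of the cyclase reads in Col-0 and 8.25% in npr1-1, while AOC2 made up 76.4 and 75.0%.

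Genes on either side of the tandem cluster did not share its ratio. MAP1B, the nearest listed gene upstream, stood at 5.68 and 5.24 CPM, which made the ratio 0.922 (interval 0.778 to 1.09). PP2AA2, the nearest listed gene downstream, stood at 75.0 and 66.1 CPM, which made the ratio 0.881 (interval 0.840 to 0.923). These 2 intervals lay above that of the summed cluster.

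**Figure D3:**
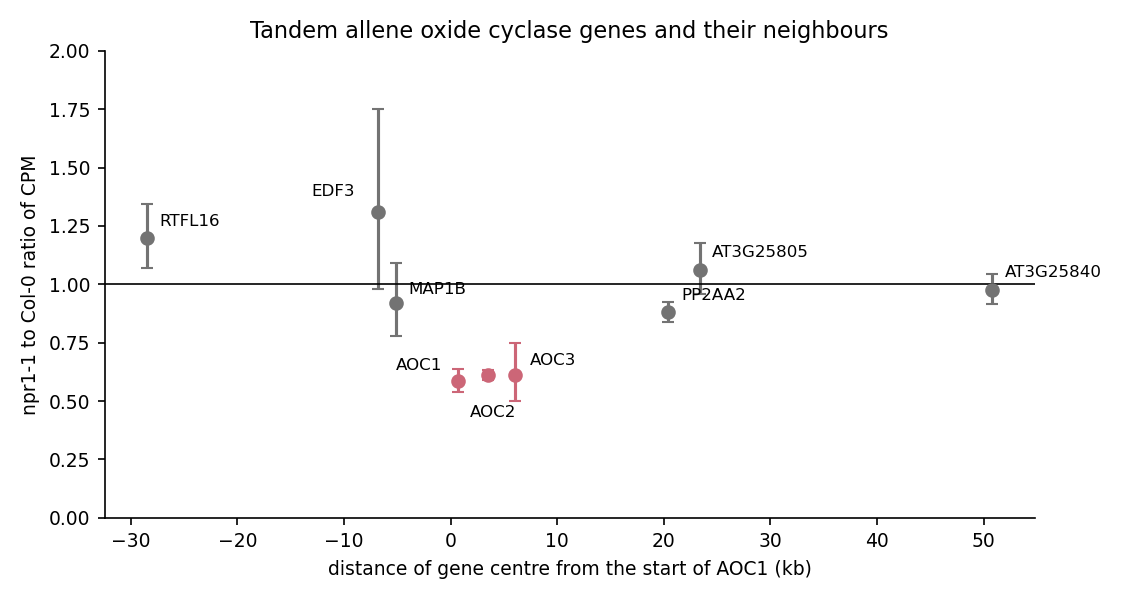
The vertical axis gives the npr1-1 to Col-0 ratio of CPM with 95% counting intervals, and the horizontal axis the distance of each gene's centre from the start of AOC1 in kb, for AOC1, AOC2 and AOC3 (red) and the 3 listed genes on each side (grey). The cyclases lie between 0.587 and 0.612, and the neighbours between 0.881 and 1.31. The value of 1.31 belongs to EDF3, which was below the minimum of 5 CPM in both libraries, and its interval held 1.

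OPR3 (AT2G06050, chromosome 2, 2359115 to 2362180, minus strand) encodes the peroxisomal reductase of OPDA. It was measured at 25.9 CPM in Col-0 against 20.3 in npr1-1, or 1316 and 1034 reads. This gave a ratio of 0.784 (interval 0.722 to 0.851). It was close to that of AOS, the AOS ratio divided by the OPR3 ratio being 0.999 (interval 0.914 to 1.09).

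Levels can be set against each other between genes only per length of transcript. Per kb of the deposited gene model, Col-0 had 172 CPM of LOX2, 159 of AOC2 and 95.7 of AOS. Further down were AOC1 at 30.7, OPR3 at 17.1, AOC4 at 9.80 and AOC3 at 5.10 CPM per kb. LOX6 at 4.53, LOX3 at 3.17 and LOX4 at 2.55 CPM per kb closed the order. In npr1-1 LOX2 and AOC2 changed places, at 82.5 and 96.9 CPM per kb, and so did LOX6 and AOC3, at 4.395 and 3.12. The other 6 genes kept their places, with AOS at 74.9 CPM per kb. Each level rests on 1 library, so no spread between samples is available to say which neighbours in this order differ.

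**Figure D4:**
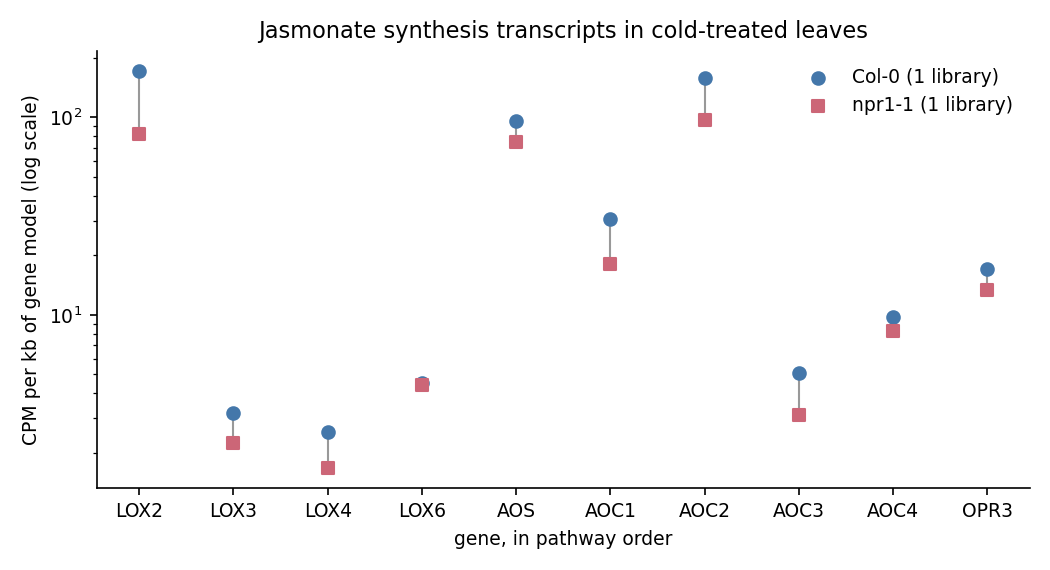
The vertical log axis gives CPM per kb of gene model for the 10 genes in pathway order, in the Col-0 library (circles) and the npr1-1 library (squares). LOX2 and AOC2 stand well above their relatives, and LOX2 has the widest gap between the libraries, 172 against 82.5.

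The steps around these enzymes were followed through 7 further lists of jasmonate genes. Of their 68 genes 57 were in the table and 43 passed the minimum. Of the 43, 38 had differences below 0, against 59.0% of all genes, and their median was -0.25. OPR2, ILL6 and TAT3 passed through the Col-0 library alone and so could only be negative, and of the 40 genes that reached 5 CPM in both libraries 35 were below 0, against 58.9% of all such genes. At least 1.5-fold lower were 6 of the 43, against 2.06% of all genes. At least 2-fold lower were 2, NAC019 and TAT3, against 0.529%, and 0 were at least 1.5-fold higher, against 0.909%. The same shares of all genes stand behind the counts of each list that follow.

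Substrate supply had 2 genes past the minimum, 1 lower and 1 higher, with a median log2 difference of -0.07 and none 1.5-fold apart. FAD7, a plastid desaturase that makes linolenic acid, stood at 253 and 217 CPM, and FAD8, its cold-responsive relative, at 83.7 and 88.98 CPM. FAD8 overlaps a gene on the opposite strand in the RefSeq annotation. Of the other oxylipin enzymes 3 of 4 past the minimum were below 0, OPR2 having passed through Col-0 alone, none was 1.5-fold apart, and the median was -0.40. LOX1, a 9-lipoxygenase outside jasmonate synthesis that overlaps a gene on the opposite strand, stood at 7.94 and 9.49 CPM, a log2 difference of 0.23. HPL1, annotated as a hydroperoxide lyase, had -0.36. OPR1 and OPR2, reductases resembling OPR3, had -0.45 and -0.44. They are neighbours whose RefSeq models overlap each other, and OPR2 also overlaps a gene on the opposite strand.

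Most genes in the list of peroxisomal steps, which also holds the importer gene PXA1, were lower in npr1-1. All 12 genes passed the minimum, 11 were below 0, none was 1.5-fold apart, and the median log2 difference was -0.25. ACX1, the acyl-CoA oxidase with the main role in jasmonate synthesis, stood at 164 and 115 CPM, a difference of -0.51. ACX3 had -0.43, ACX4 -0.39 and the thiolase gene KAT5 -0.36, while OPR3 had -0.34 and AOS -0.35. The ratio of ACX1 was 0.702 (interval 0.679 to 0.726), below the interval of AOS but overlapping that of OPR3. The ratio intervals of ACX3, ACX4 and KAT5 overlapped those of both OPR3 and AOS. The thiolase gene KAT1 was the one above 0, at 0.07, and the interval of its ratio held 1. KAT5 overlaps a gene on the opposite strand.

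Conjugation and turnover had 5 genes past the minimum, all below 0 and 1 of them at least 1.5-fold lower (2.06% of all genes), with a median of -0.29. ILL6 among them passed through Col-0 alone. JAR1, which joins jasmonate to isoleucine to make the active hormone, stood at 43.4 and 35.4 CPM, a difference of -0.29. AT5G05600, annotated as a 2-oxoglutarate and Fe(II)-dependent oxygenase, stood at 13.1 and 6.12 CPM, a difference of -0.99. The amidohydrolase genes ILL6 and IAR3 had -0.37 and -0.21.

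Among genes of perception and repression 9 of 10 past the minimum were below 0 (59.0% of all genes) and 1 was at least 1.5-fold lower (2.06%), with a median of -0.23. The receptor gene COI1 stood at 35.2 and 33.5 CPM, and the interval of its ratio, which was 0.952, held 1. JAZ1, a repressor that the hormone itself induces, stood at 75.2 and 42.0 CPM, a difference of -0.82. JAZ6 had -0.53, JAZ3 -0.45 and JAZ9 -0.37. JAZ11 was the one above 0, at 11.3 and 13.4 CPM, a difference of 0.23, with an interval of its ratio from 1.06 to 1.33. JAZ10, below the minimum, had 96 and 94 reads. COI1 and JAZ10 each overlap a gene on the opposite strand.

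All 5 transcription factor genes past the minimum were below 0 (59.0% of all genes) and 2 were at least 1.5-fold lower (2.06%), with a median of -0.21. NAC019, which acts downstream of MYC2 and is also induced by abscisic acid, stood at 24.9 and 7.003 CPM, a difference of -1.69. MYC2, the main activator of the wound branch, had -0.60, MYC3 -0.21 and MYC4 -0.11. MYC2 overlaps AT1G32630 on the opposite strand.

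Of 5 response genes past the minimum 4 were below 0 (59.0% of all genes) and 2 were at least 1.5-fold lower (2.06%), with a median of -0.55. TAT3 passed through Col-0 alone, and of the other 4 genes 3 were below 0 and 1 was at least 1.5-fold lower. TAT3, a tyrosine aminotransferase gene, had 286 reads in Col-0 and 34 in npr1-1, a difference of -1.99. CORI3, a coronatine-induced gene annotated in the tyrosine transaminase family, stood at 203 and 103 CPM, a difference of -0.98. JR1 stood at 58.5 and 39.6 CPM, a difference of -0.55, and overlaps a gene on the opposite strand. The vegetative storage protein genes differed less, with VSP1 at 5.07 and 5.61 CPM and VSP2 at 13.4 and 12.2 CPM, and the intervals of both ratios held 1. PDF1.2A, a defensin gene of the ethylene and jasmonate branch, was below the minimum, with 192 and 18 reads.

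**Figure D5:**
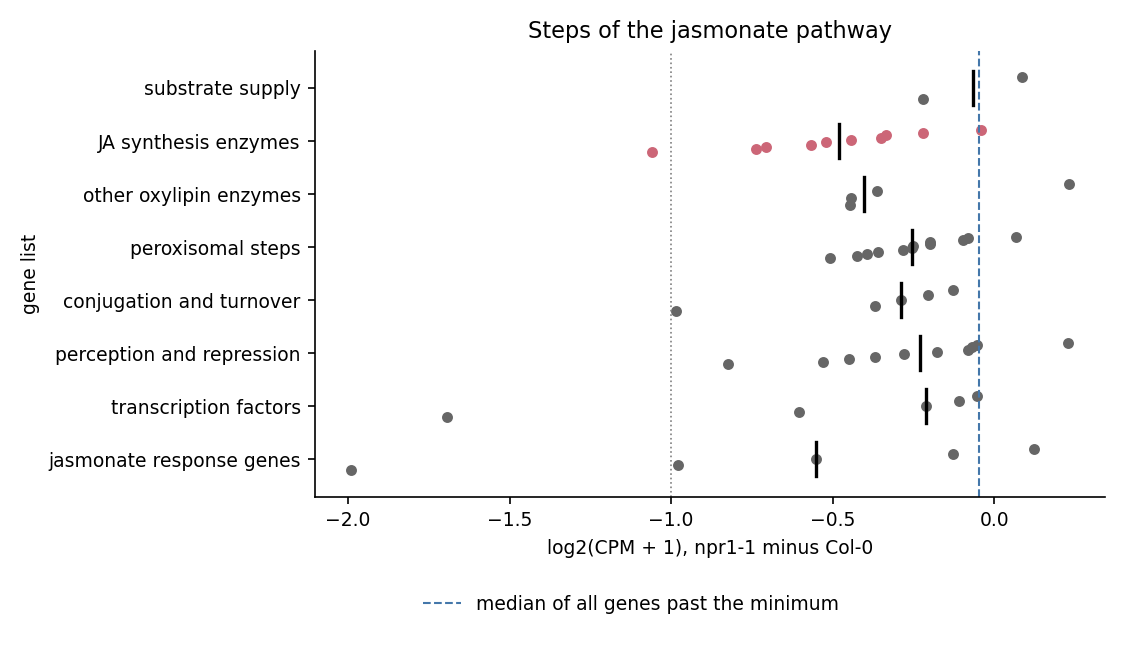
The horizontal axis gives the log2(CPM + 1) difference, npr1-1 minus Col-0, of each gene past the minimum, by list in pathway order, with list medians as black bars and the median of all genes as a dashed line. The median of the synthesis enzymes (red, JA standing for jasmonate) is -0.48, and that of the peroxisomal steps -0.25.

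The 3 genes with levels nearest to those of LOX2 in the 2 libraries, by distance on the log2(CPM + 1) scale, were ERD7, AT5G61820 and Cpn60beta2. Their log2 differences of -0.59, -0.48 and -0.40 were nearer to 0 than that of LOX2. Over 2 libraries this likeness describes levels only.

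The libraries held 50864103 reads for Col-0 and 50976521 for npr1-1. The leaf markers RBCS1A, RCA, CAB1, LHCB2.1 and CA1 were abundant in both, and their sum was 36703 and 40706 CPM. Of these 5 markers 4 were higher in npr1-1, where 5736 of the 13976 genes past the minimum were. None of the 4 flower markers was in the table, and of 4 root markers CASP1 and GL2 were, summing to 52.2 and 47.4 CPM, almost all of it GL2, which leaf hairs also express. NPR1 itself had a ratio of 0.850, which does not check the genotype. The touch-induced genes TCH2, TCH3 and TCH4, picked after their values were seen, were also lower in npr1-1, as 59.0% of all genes past the minimum were. TCH2 stood at 30.4 and 21.1 CPM, TCH3 at 19.9 and 8.22 CPM and TCH4 at 7.35 and 5.57 CPM. Other touch-induced genes were not looked at, and the part of handling in the jasmonate genes was not tested. The clock genes CCA1 and LHY had ratios of 0.987 and 1.05. Bulk RNA does not separate fewer cells of a type from less transcript per cell.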

How the data were processed

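RNA sequencing of leaves gave 1 library for each genotype, assigned by its label. Per the file headers the authors deposited CPM, with commas as decimal marks, and a library sums to 1000000. The submitters' processing notes name TopHat2, DESeq2 and the build TAIR10, without version or role. The sources used here give no counter, strand setting or gene filter. Dividing by the CPM of 1 read gave whole numbers, within 0.01 reads, for 100% of values, and these reads served for counting intervals only. No count test was run, for lack of replicates.

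The difference per gene was log2(CPM + 1), npr1-1 minus Col-0. Genes had to reach 5 CPM (254 reads in Col-0, 255 in npr1-1) in either library. The added 1 shrinks the change of low genes. Ratios are of CPM without the added 1, with exact conditional (Clopper-Pearson) 95% intervals. Quotients of 2 ratios, of which 13 were computed, carry exact conditional intervals of an odds ratio. PCR copies are not separate molecules.

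All 91 listed genes matched the RefSeq table of TAIR10.1, and all 18151 nuclear gene models compared overlapped the RefSeq gene of the same ID on the same strand. Sequences are from RefSeq TAIR10.1. Near copies were sought with BLAST+ 2.17.0, and cyclases were aligned with MAFFT 7.526. Calculations used Python 3.11.15, numpy 2.4.6, pandas 2.3.3, scipy 1.17.1, Biopython 1.88 and matplotlib 3.10.9, and the procedure was tested on simulated data. The members, the lists and the motifs were chosen with earlier results of these data known. Genes named beyond the 10 are the 4 of each list with the largest difference past the minimum, JAR1, COI1, MYC2, JAZ1, JAZ10, VSP1, VSP2 and PDF1.2A, the 3 nearest to LOX2, and markers or neighbours. KAT1, JAZ11, NPR1, the touch genes and the clock genes were added after their values were seen. Alternatives were other scalings, pseudocounts, filters, a length correction, other summaries and summed paralogs, and one without a pseudocount was added after the data were seen.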

Additional observations from a re-analysis of the deposited data

How the results depend on the processing

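The median log2 difference of the 10 synthesis genes, -0.48, lay between -0.55 and -0.33 under all 13 alternatives. At least 1.5-fold lower were 3 members, and 5 with a pseudocount of 0.1 or with none, which adds LOX4 and AOC3 by shrinking low genes less. At least 2-fold lower was 1 member, and 0 after the length correction, which takes LOX2 to -0.97. LOX6 turned to 0.049 under that correction, and the substrate supply median to 0.0053. Of 90 member values under alternatives 85 stayed within the counting interval of the reported value, and 89 were below 0. Over all genes 102 were at least 2-fold apart (74 lower), and 61 (47 lower) with a pseudocount of 5. At least 1.5-fold apart were 415 (288 lower), 226 (158 lower) with a pseudocount of 5, 625 (438 lower) with a minimum of 1 CPM and 638 (449 lower) without a filter, since these settings shrink low genes or admit them. No paired analysis was possible because each genotype had 1 library, and no library could be left out. Median-ratio and trimmed-mean scaling moved the median of all genes from -0.05 to -0.01 and gave 408 genes 1.5-fold apart. LOX3, LOX4 and AOC3, at 160 to 477 reads per library, carry the widest counting intervals on the log2 scale, and the spread between plants was not measured.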
